A study of Mus musculus with 3 samples.

Results

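A set of 10 genes that encode transcription factors of enterocyte identity was followed through the epithelium of the mouse small intestine: Hnf4a, Hnf4g, Cdx1, Cdx2, Gata4, Gata6, Klf4, Klf5, Maf and Prdm1. They are 10 of the 13891 genes in the combined single-cell table, were chosen by name for their known roles, and were all present in it. Single cells came from 3 libraries of male mice of the outbred ICR strain, 3 weeks old at the start. AOS 0 mice received the vehicle ddH2O, B + A 0 mice received 1 injection of busulfan (40 mg/kg), an alkylating drug used in chemotherapy, and then ddH2O, and B + A 10 mice received busulfan and then alginate oligosaccharides (AOS, 10 mg/kg). Gavage was daily for 2 weeks. Each library combined the cells of 6 mice on a single lane of the 10x Genomics 3′ assay, so no spread between mice was measured and no difference between libraries could be tested. In the labels, the source field of both busulfan libraries carries another name than their title, treatment and description, and the groups were taken from those other fields.

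Enterocytes are renewed from stem cells at the base of the crypts, differentiate as they leave the crypt and are shed from the villus tip. HNF4 receptors, CDX homeodomain proteins and GATA factors act on shared enhancers of enterocyte genes, with CDX proteins setting intestinal character and GATA4 setting the character of the upper small intestine. KLF5 is known for proliferating crypt cells, KLF4 for goblet cells and non-dividing surface cells, and MAF and PRDM1 for gene programmes of the villus and of its maturation after birth.

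Sequences before the annotated starts were taken from RefSeq (build GRCm38.p6) for 4 members, Hnf4a, Cdx2, Klf4 and Prdm1. They are shown for Hnf4a, Cdx2 and Klf4, members whose levels differed in how they followed the villus. Each is the 250 bases before the start, 5′ to 3′ on the gene's strand, and capitals mark matches on either strand to the short motifs searched. These were GATAA for GATA factors, TTTAT for caudal factors, CAAAGTC for HNF4 receptors, CACCC for Krüppel-like factors, GAAAG for PRDM1 and TGCTGA for MAF.
Hnf4a, first start (chr2:163506607-163506856, plus strand): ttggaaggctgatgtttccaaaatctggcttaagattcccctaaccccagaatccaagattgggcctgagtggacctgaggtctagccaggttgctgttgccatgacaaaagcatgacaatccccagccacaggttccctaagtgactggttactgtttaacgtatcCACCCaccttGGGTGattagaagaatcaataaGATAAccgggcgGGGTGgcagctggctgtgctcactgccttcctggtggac
Hnf4a, downstream start (chr2:163546905-163547154, plus strand): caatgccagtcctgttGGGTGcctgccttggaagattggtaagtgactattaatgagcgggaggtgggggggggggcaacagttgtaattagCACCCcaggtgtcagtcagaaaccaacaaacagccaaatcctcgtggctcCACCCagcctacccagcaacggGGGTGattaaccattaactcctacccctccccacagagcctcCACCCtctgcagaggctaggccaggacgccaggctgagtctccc
Cdx2 (chr5:147307250-147307499, minus strand): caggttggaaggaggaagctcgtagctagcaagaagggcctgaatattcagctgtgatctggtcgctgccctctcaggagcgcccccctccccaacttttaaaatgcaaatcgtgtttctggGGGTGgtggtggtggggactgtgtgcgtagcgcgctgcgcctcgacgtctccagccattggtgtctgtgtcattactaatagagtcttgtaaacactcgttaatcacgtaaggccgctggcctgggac
Klf4 (chr4:55532476-55532725, minus strand): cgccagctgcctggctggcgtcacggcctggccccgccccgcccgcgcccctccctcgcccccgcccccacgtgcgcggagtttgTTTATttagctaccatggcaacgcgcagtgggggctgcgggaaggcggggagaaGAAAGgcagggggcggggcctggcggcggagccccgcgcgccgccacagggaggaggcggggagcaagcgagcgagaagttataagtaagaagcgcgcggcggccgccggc
The first Hnf4a window held 1 GATAA and 3 CACCC matches, and the downstream window held 5 CACCC matches. The Cdx2 window held 1 CACCC match, and the Klf4 window, with 74% G and C, held 1 TTTAT and 1 GAAAG. No match to these motifs lay in the Prdm1 window, and matches in the windows shown did not overlap each other. Such short motifs are frequent: of 32851 mouse promoters of the same length, 22.6% held GATAA, 37.3% TTTAT, 3.84% CAAAGTC, 52.0% CACCC, 51.5% GAAAG and 16.1% TGCTGA.

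On the same build, Hnf4a lies at chr2:163506808-163572910, Hnf4g at chr3:3508030-3658052, Cdx1 at chr18:61018862-61036199 and Cdx2 at chr5:147300805-147307270. Gata4 lies at chr14:63198922-63271692, Gata6 at chr18:11052064-11085635, Klf4 at chr4:55527143-55532466 and Klf5 at chr14:99298691-99315036. Maf lies at chr8:115682942-115707794 and Prdm1 at chr10:44437177-44528501. These gene bounds are from GENCODE and differ from the RefSeq starts used for the windows above. The first Hnf4a window ends at 163506856 and the Cdx2 window begins at 147307250, both inside these bounds.

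The libraries held 4106 cells (AOS 0), 3195 cells (B + A 0) and 5352 cells (B + A 10), with a median of 7371, 6407 and 3505 unique molecular identifiers (UMIs, counted transcripts) per cell. The libraries shared 17 to 34 cell barcodes in pairs. Clustering without the 10 members gave 19 clusters, and their marker genes gave 900 stem-like, 773 early enterocyte-like, 1049 proximal enterocyte-like, 1010 mature villus enterocyte-like, 994 ileal enterocyte-like and 2039 goblet-like cells. Other named classes served as reference, and 954 cells in 4 clusters stayed unnamed. Markers were highest in their own class for 9 of 10 stem, 5 of 10 early, 8 of 9 mature villus, 7 of 7 ileal and 10 of 10 goblet genes, but for 2 of 9 proximal genes, so the proximal and the mature villus class were weakly separated. RNA of other cells was present in every class: the 10 goblet markers summed to 25.5, 74.4 and 97.5 UMIs per 10000 in mature villus-like cells, and none of them was at 0. In T cell-like cells, which should hold no enterocyte transcripts, Apoa1 stood at 13.9% to 24.5% and Vil1 at 32.4% to 35.7% of its level in mature villus-like cells. Members were counted in T cell-like cells as well, Hnf4a at 1.30, 1.44 and 1.22 UMIs per 10000, Cdx2 at 0.796, 0.876 and 0.640 and Gata6 at 0.328, 0.341 and 0.245, and these levels are a background beside which the values below are read. That background is not a common floor of all classes. Apoa1 stood at 58.7, 76.8 and 67.0 in T cell-like, 7.01, 12.5 and 14.3 in stem-like and 6.46, 14.8 and 15.7 in goblet-like cells.

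Levels below are UMIs per 10000 UMIs of all cells of a class in a library, in the order AOS 0, then B + A 0, then B + A 10. In 3′ counting a transcript counts as 1 UMI whatever its length. Intervals are 95% exact intervals that cover counting error only. A difference between classes was called when it passed 2-fold in the same direction in each of the 3 libraries, for genes with at least 100 UMIs, which 9 of the 10 members had. Prdm1 did not have them.

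The HNF4 pair took different courses from crypt to villus. Hnf4a, which encodes the nuclear receptor HNF4α, stood at 1.68, 1.58 and 1.71 in stem-like cells, 1.91, 1.86 and 1.87 in early enterocyte-like cells and 2.08, 1.55 and 1.72 in mature villus-like cells. The stem and the mature villus ranges overlapped, with mature to stem ratios of 1.23 (1.06–1.44), 0.984 and 1.01. Ileal enterocyte-like cells had 2.28, 2.22 and 1.91, above the proximal levels of 1.83, 1.51 and 1.57, and goblet-like cells had 0.896, 0.934 and 0.915. Hnf4a was thus near level along the enterocyte line and lower in goblet-like cells, at 0.532, 0.591 and 0.536 of the stem level, which did not reach the 2-fold call.

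Hnf4g, which encodes the related receptor HNF4γ, was low in stem-like cells (0.549, 0.518 and 0.523) and higher in early enterocyte-like cells (2.39, 1.80 and 2.01). It reached 5.56, 3.78 and 3.72 in proximal enterocyte-like cells and 5.76, 4.44 and 4.01 in mature villus-like cells. Every villus class lay above every stem library, by 10.5, 8.58 and 7.67 times for mature villus-like cells. In ileal enterocyte-like cells it stood at 2.43, 2.31 and 2.31, which was 0.437, 0.611 and 0.623 of the proximal level. Goblet-like cells had 0.289, 0.323 and 0.376. In goblet-like cells both HNF4 genes lay below their T cell-like levels (1.64, 1.65 and 1.69 for Hnf4g). Goblet-like cells also held less Apoa1 than T cell-like cells, and how much of their HNF4 levels is background was not tested.

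As a share of the UMIs of both HNF4 genes, Hnf4a took 75.4%, 75.3% and 76.5% in stem-like cells, 44.4%, 50.9% and 48.2% in early enterocyte-like cells and 26.5%, 25.9% and 29.99% in mature villus-like cells. In ileal enterocyte-like cells its share was 48.5%, 49.0% and 45.2%, and in T cell-like cells 44.1%, 46.5% and 41.9%. The Hnf4a share was therefore lower in mature villus-like than in stem-like cells, in each library. Capture can differ between genes, so a share is read between classes and not as the relative abundance of the pair.

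**Figure D1:**
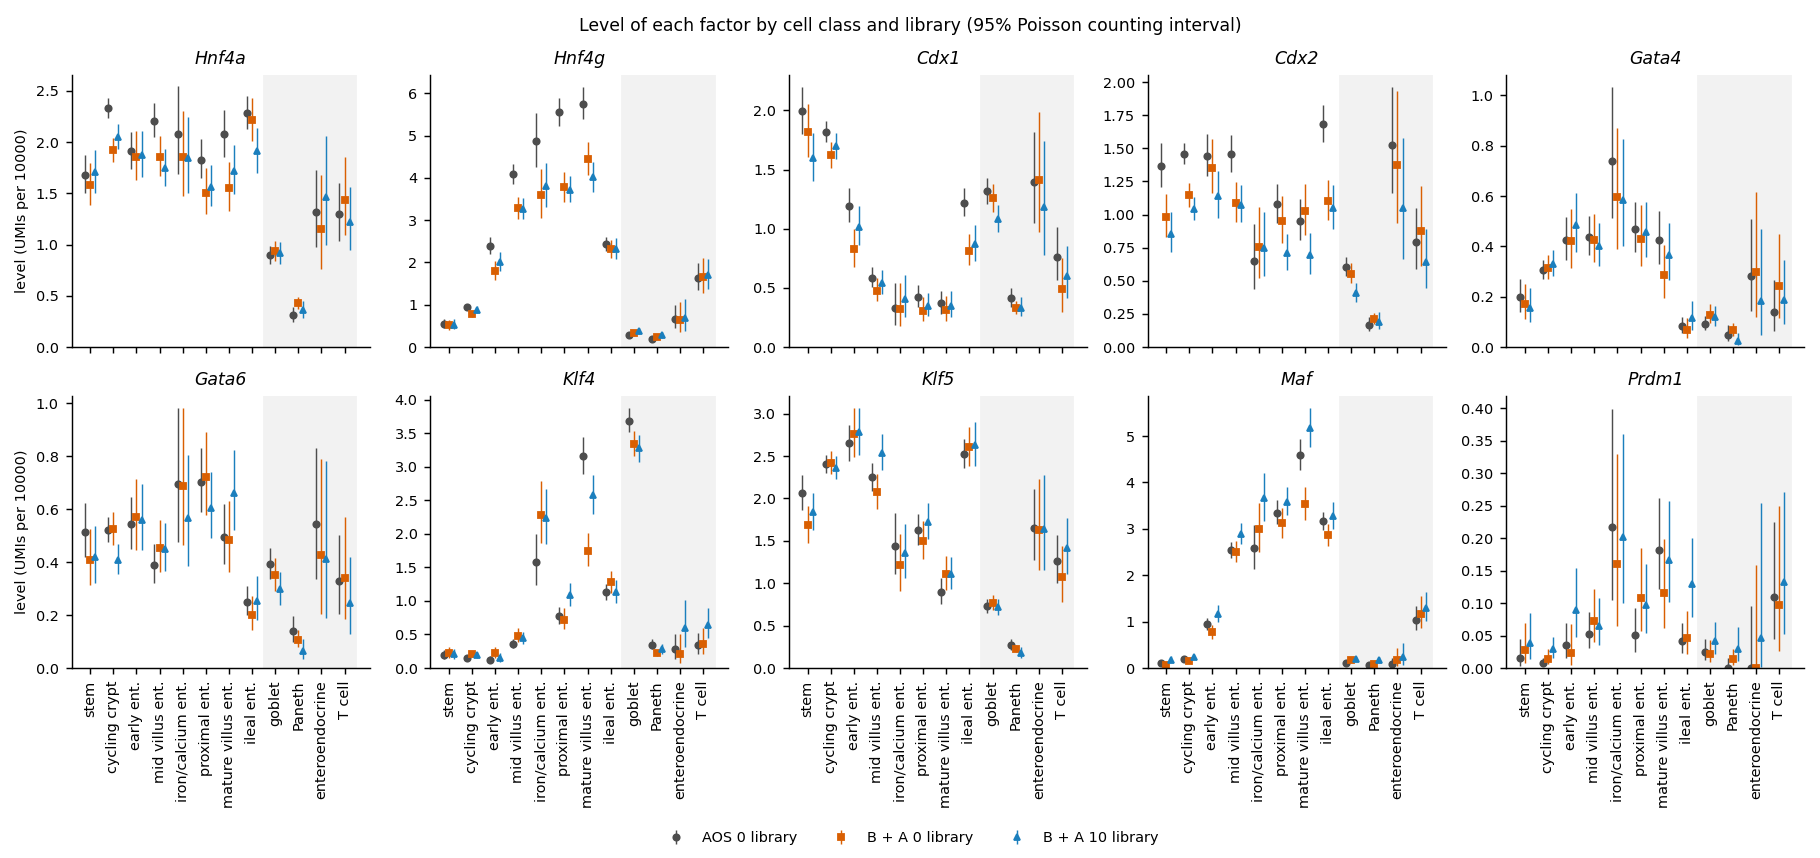
Level of each of the 10 members (vertical axes, UMIs per 10000 UMIs) in the named cell classes (horizontal axes), with 1 point per library and bars for the 95% exact Poisson interval, which covers counting error only. Hnf4g and Maf are low in stem-like cells and high in mature villus-like cells in each library, Cdx1 has the opposite order, and Klf4 is high in goblet-like as well as in mature villus-like cells.

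Of the caudal homeobox genes, Cdx1 was high toward the crypt, and higher in the ileal than in the proximal class. Cdx1 stood at 1.99, 1.82 and 1.59 in stem-like cells, 1.19, 0.825 and 1.02 in early enterocyte-like cells and 0.370, 0.313 and 0.350 in mature villus-like cells. All 3 stem levels lay above all mature villus levels, by 5.39, 5.81 and 4.55 times. Ileal enterocyte-like cells had 1.22, 0.815 and 0.869, against 0.425, 0.307 and 0.348 in proximal enterocyte-like cells, ratios of 2.87 (2.26–3.67), 2.66 (1.85–3.91) and 2.497 (1.81–3.49). Goblet-like cells kept 1.31, 1.26 and 1.08. The ileal levels were thus near the early ones and below the goblet ones. Ileal cells made up 58.4% of the lowest of the 5 villus bins described below, and proximal cells 0.0917%. The landmarks with the highest levels in those bins also differed between these classes. The base landmark Reg3g was highest in the ileal class. The tip landmark Apoa4 stood at 1.64, 2.95 and 3.64 in ileal and at 47.3, 50.9 and 55.4 in proximal enterocyte-like cells. A low bin is thus no measure of villus position alone. The part of villus position in the ileal to proximal ratios was not tested.

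Cdx2, which in the adult keeps the epithelium intestinal, differed less between classes. It stood at 1.37, 0.981 and 0.856 in stem-like cells, 1.44, 1.35 and 1.14 in early enterocyte-like cells, 0.953, 1.03 and 0.692 in mature villus-like cells and 1.68, 1.10 and 1.05 in ileal enterocyte-like cells. The stem range overlapped each of the others, the ileal range lay above the mature villus range, and goblet-like cells (0.605, 0.554 and 0.410) lay below all of them and below the T cell-like level. Cdx1 took 59.3%, 65.0% and 65.1% of the UMIs of the CDX pair in stem-like cells and 28.0%, 23.3% and 33.6% in mature villus-like cells. Its share in ileal enterocyte-like cells, 42.0%, 42.5% and 45.3%, was above that in proximal enterocyte-like cells, 28.3%, 24.3% and 32.9%. Early enterocyte-like cells had 45.2%, 37.9% and 47.1%.

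The GATA pair separated the ileal from the proximal class. Gata4 stood at 0.470, 0.431 and 0.457 in proximal and at 0.0826, 0.0667 and 0.117 in ileal enterocyte-like cells, so all proximal levels lay above all ileal levels. The proximal level was 5.69, 6.46 and 3.92 times the ileal one. Gata6 stood at 0.703, 0.721 and 0.606 in proximal and at 0.251, 0.200 and 0.253 in ileal enterocyte-like cells, ratios of 2.80, 3.60 and 2.40. The ileal class was named from bile acid genes such as Fabp6 and Slc10a2, and no GATA gene entered its naming.

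From crypt to villus the GATA pair differed. Gata4 was 2.14, 2.47 and 3.08 times higher in early enterocyte-like cells (0.424, 0.420 and 0.484) than in stem-like cells (0.198, 0.170 and 0.157). Gata6 stood at 0.514, 0.409 and 0.418 in stem-like cells and at 0.542, 0.568 and 0.560 in early enterocyte-like cells. Only Gata4 of the pair passed the 2-fold call there, and the difference between the genes was not tested. Gata4 lost the call without joining the libraries, with members allowed in the clustering, in cells with at least 500 genes, with ribosomal and defensin genes out of the total, and after thinning each cell to 1000 UMIs. Mature villus-like cells had 0.427, 0.286 and 0.367 for Gata4 and 0.496, 0.483 and 0.659 for Gata6, and goblet-like cells had 0.0918, 0.128 and 0.120 for Gata4 and 0.392, 0.350 and 0.297 for Gata6. The mature villus levels of Gata4 lay above its goblet levels in each library. Gata4 took 27.9%, 29.4% and 27.3% of the pair's UMIs in stem-like cells and 43.9%, 42.5% and 46.4% in early enterocyte-like cells. Gata4 was rarely counted in the ileal class, with 28, 13 and 18 UMIs.

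**Figure D2:**
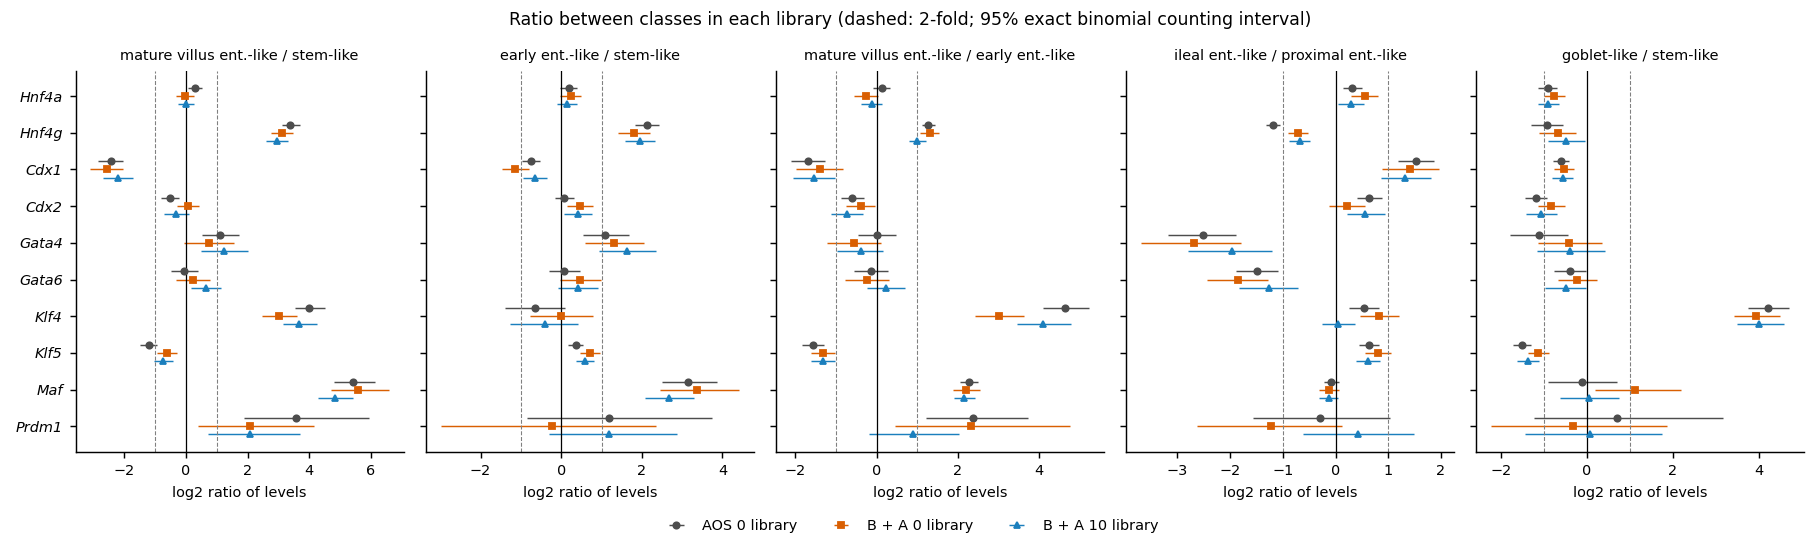
Ratio of each member's level between cell classes (horizontal axes, log2 scale) for the 5 class comparisons, with 1 point per library and bars for the 95% interval of counting error. Points past the dashed 2-fold lines in all 3 libraries were called, among them Hnf4g and Maf for mature villus-like against stem-like cells and Gata4 and Gata6, lower, for ileal against proximal enterocyte-like cells.

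The Krüppel-like factors differed in opposite directions between early enterocyte-like and mature villus-like cells, and between stem-like and goblet-like cells. Klf5, a factor of dividing crypt cells, stood at 2.06, 1.68 and 1.84 in stem-like cells, 2.65, 2.76 and 2.78 in early enterocyte-like cells and 0.897, 1.11 and 1.11 in mature villus-like cells. The mature villus level was 0.338, 0.401 and 0.399 of the early one. In ileal enterocyte-like cells Klf5 was near the early level, at 2.52, 2.61 and 2.63, and in goblet-like cells it was 0.728, 0.771 and 0.716, below the stem level by 2.83, 2.18 and 2.56 times.

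Klf4 stood at 0.198, 0.218 and 0.203 in stem-like cells and at 0.127, 0.218 and 0.152 in early enterocyte-like cells. It reached 3.16, 1.75 and 2.58 in mature villus-like cells and 3.69, 3.34 and 3.27 in goblet-like cells. Both classes lay above the stem level in each library, by 15.9, 8.04 and 12.7 times in mature villus-like cells and by 18.6, 15.3 and 16.2 times in goblet-like cells. In proximal enterocyte-like cells Klf4 had 0.779, 0.721 and 1.09, and in ileal enterocyte-like cells 1.13, 1.28 and 1.13.

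Goblet-like cells formed 2 clusters that differed in Klf4, which had not entered the clustering. A further cluster of 383 cells, led by Fer1l6, Muc2 and Fcgbp, fitted the goblet list best but stayed unnamed. Of its cells, 55.6% were in the highest 5% of the doublet scores described below, and its levels are not given here. The cluster of 1266 cells led by Agr2 and Retnlb had 2.73, 2.42 and 2.35, and the cluster of 773 cells led by Ido1, Clca1 and Zg16 had 5.90, 4.89 and 4.90. These ranges did not overlap. Klf5 had the reverse order, at 0.828, 1.01 and 0.930 in the first and 0.497, 0.371 and 0.340 in the other cluster.

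Klf4 took 8.78%, 11.47% and 9.94% of the UMIs of Klf4 and Klf5 in stem-like cells, 77.9%, 61.25% and 69.9% in mature villus-like cells and 83.5%, 81.3% and 82.0% in goblet-like cells. The mature villus share depended on where the class was drawn: it was 71.6% over all libraries, and 56.4% when the cells were clustered without joining the libraries.

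**Figure D3:**
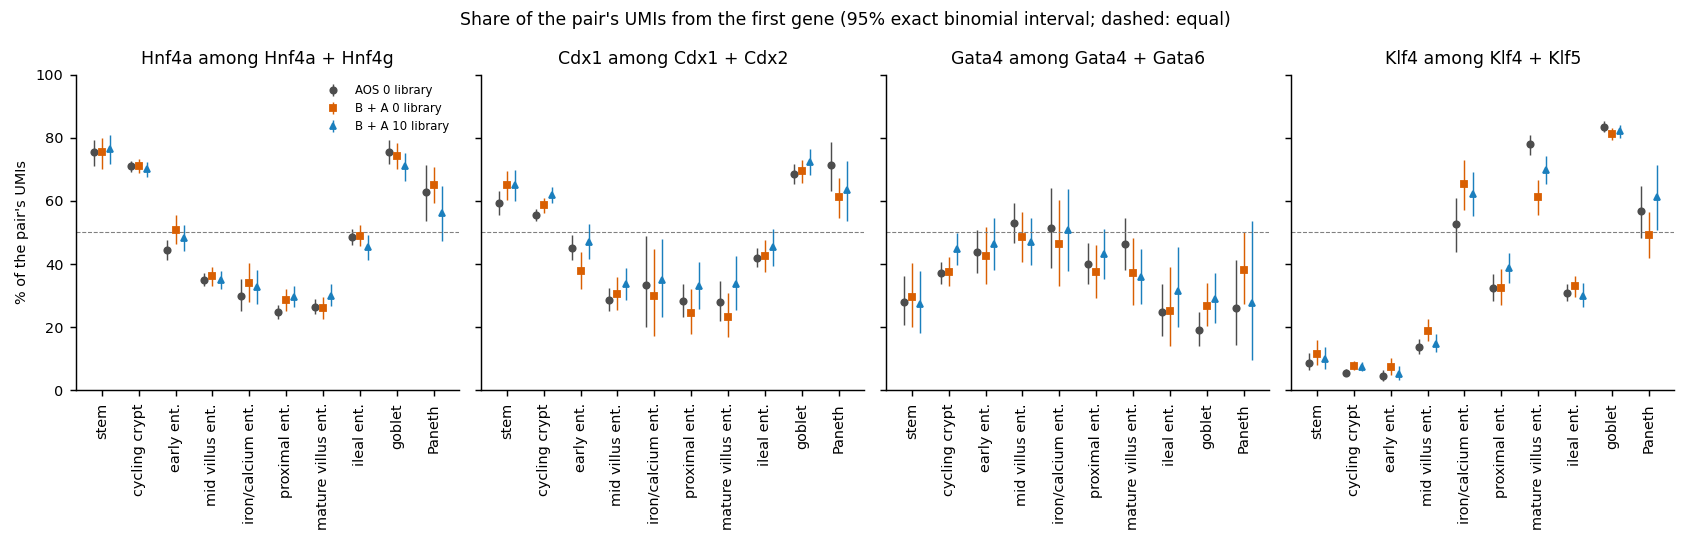
Share of the UMIs of a gene pair that came from its first gene (vertical axes, percent) in 10 cell classes (horizontal axes), with 1 point per library and bars for the 95% exact binomial interval. The Hnf4a share falls from 75.3% to 76.5% in stem-like cells to 25.9% to 29.99% in mature villus-like cells, and the Klf4 share is above 80% in goblet-like cells.

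Maf, which encodes a basic leucine zipper factor, had the steepest order among the 9 members tested. It stood at 0.107, 0.0749 and 0.183 in stem-like cells, 0.949, 0.770 and 1.16 in early enterocyte-like cells and 4.60, 3.54 and 5.17 in mature villus-like cells. The mature villus level was 43.0, 47.2 and 28.3 times the stem level, with only 21, 11 and 28 UMIs behind the stem values. Proximal (3.35, 3.12 and 3.59) and ileal enterocyte-like cells (3.16, 2.87 and 3.28) were close to each other, with ratios from 0.914 to 0.943 whose intervals all held 1. Goblet-like cells had 0.0985, 0.163 and 0.189.

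Prdm1, which encodes the repressor BLIMP1, gave 363 UMIs in 348 of all 12653 cells, or 2.75%. In mature villus-like cells it had 29, 13 and 20 UMIs, or 0.182, 0.116 and 0.167, and in stem-like cells 3, 4 and 6 UMIs, or 0.0153, 0.0272 and 0.0392. The mature villus levels lay above the stem levels in each library. T cell-like cells, in which PRDM1 is also known, had 0.109, 0.0973 and 0.132, and neighbouring classes in the order of Prdm1 levels all overlapped.

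Shares of cells with at least 1 UMI were compared after thinning every cell to 1000 UMIs, and the unthinned share is given in brackets. Maf was found in 1.33% (5.78%) of stem-like, 35.7% (73.5%) of mature villus-like and 6.39% (28.8%) of T cell-like cells. For Hnf4g the shares were 5% (23.9%), 37.8% (76.1%) and 16.0% (41.9%). Mature villus-like cells thus lay well above the T cell-like class for both genes, and stem-like cells below it. Klf4 was found in 29.3% (77.2%) of goblet-like, 21.7% (54.0%) of mature villus-like and 5.11% (14.1%) of T cell-like cells. Cdx1 was found in 14.3% (55.2%) of stem-like, 3.47% (11.8%) of mature villus-like and 5.11% (19.5%) of T cell-like cells. Its mature villus share was thus below the T cell-like share. So were the Klf5 share there (7.92% against 8.31% thinned) and the ileal Gata4 share (1.01% against 2.88%). Gata6 was found in 1.61% (14.9%) of ileal, 6.48% (24.2%) of proximal and 2.56% (12.8%) of T cell-like cells, and its ileal share was below the T cell-like share after thinning alone. The background is not a common floor of all classes, and how much of these low shares is background was not tested. Cdx2 was found in 10.1% (42%) of stem-like, 9.01% (27.7%) of mature villus-like and 3.83% (25.6%) of T cell-like cells. Hnf4a was found in 14.7% (56.3%) of stem-like, 17.3% (49.1%) of mature villus-like, 9.42% (38.2%) of goblet-like and 11.8% (36.4%) of T cell-like cells. Prdm1 was found in 1.49% (5.15%) of mature villus-like, 0.222% (1.44%) of stem-like and 1.92% (5.43%) of T cell-like cells, which are no background for it. The median UMIs per cell were 4989 in stem-like, 3704 in mature villus-like, 5181 in goblet-like and 4185 in T cell-like cells.

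Counted over the 9 tested members, mature villus-like cells were higher than stem-like cells for 3 (Hnf4g, Klf4 and Maf) and lower for 1 (Cdx1). Of all 6927 genes tested there, 19.6% were higher and 27.7% lower. Early enterocyte-like against stem-like cells gave 3 higher members (Hnf4g, Maf and, with the losses given above, Gata4) and 0 lower, beside 7.35% and 8.55% of all genes. Mature villus-like against early enterocyte-like cells gave 2 higher (Klf4 and Maf) and 2 lower (Cdx1 and, except without joining the libraries, Klf5), beside 10.5% and 16.6%. Ileal against proximal enterocyte-like cells gave 1 higher (Cdx1) and 2 lower (Gata4 and Gata6), beside 2.84% and 5.16%, and goblet-like against stem-like cells gave 1 higher (Klf4) and 1 lower (Klf5), beside 7.13% and 30.7%. After thinning to 1000 UMIs per cell, 5 members had enough UMIs for early against stem-like cells and Hnf4g alone was called, and 7 had enough for ileal against proximal and Cdx1 alone was called. The median log2 difference of the members was 0.26, 0.29, -0.05, 0.39 and -0.67 in these 5 comparisons, and that of all tested genes was -0.22, 0.01, -0.18, -0.09 and -0.72. The members' share of higher calls was farthest above the background for early against stem-like cells, and with 9 members no share is read as particular to them.

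Of 38 other transcription factors of the intestinal epithelium, 31 had enough UMIs in mature villus-like and stem-like cells, and 10 were higher and 9 lower in the former. Creb3l3, which drives genes of lipid handling, was higher by 37.4, 23.4 and 20.99 times. Sox9, a factor of crypt and Paneth cells, was lower by 56.6, 37.8 and 67.4 times. Of 27 tested between ileal and proximal enterocyte-like cells, 5 were higher in the ileal class, among them the bile acid receptor gene Nr1h4 by 4.01, 3.70 and 3.22 times, and 5 were lower, among them Onecut2 by 24.7, 26.3 and 37.6 times.

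Among 18 genes known as targets of the members, 15 were higher and 2 (Ass1 and Ccnd1) were lower in mature villus-like than in stem-like cells, beside 19.6% and 27.7% of all tested genes. Of the higher ones, Apoa4 had helped to name the mature villus class. Lct, the lactase gene and a known target of CDX2, GATA4 and HNF factors, was higher by 137, 37.4 and 25.0 times, and it was 51.7, 23.0 and 21.5 times higher in proximal than in ileal enterocyte-like cells. Between the ileal and the proximal class, 5 targets were higher and 9 lower in the former, beside 2.84% and 5.16% of all tested genes. The higher ones included Fabp6, Slc10a2, Slc51a and Slc51b, which had helped to name the ileal class. The lower ones included Lct, Apoa4 and Fabp2, which had helped to name the proximal class, so these counts follow in part from the naming. Fabp6, an ileal bile acid carrier, was higher in the ileal class by 81.5, 65.5 and 91.0 times.

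To follow the villus in steps, enterocyte-like cells were ordered by villus landmark genes and split into 5 bins from base to tip. The tip landmarks were markers of the mature villus class and the base landmarks of the early class, so the bins are no separate look. Reg3g had the highest level of the base landmarks, at 568, 618 and 476 in the lowest bin. Apoa4 led the tip landmarks, at 116, 93.2 and 96.1 in the highest bin. The base landmark Reg1 was higher in the highest than in the lowest bin in each library. Another base landmark, Nlrp6, had 1.90, 1.85 and 2.13 in the lowest and 1.58, 2.01 and 2.34 in the highest bin. Reg3g was highest in the ileal class, and Apoa4 had helped to name the proximal as well as the mature villus class. The order can therefore also follow region, and the part of region in the ratios below was not tested. Cells of the ileal class made up 58.4% of the lowest bin and were then left out, an ordering chosen after seeing the data. From the lowest to the highest bin, Klf4 was then higher by 9.56, 4.71 and 8.85 times, and by 4.34, 2.09 and 4.13 times with the ileal cells kept. Maf was higher by 2.40, 2.497 and 2.30 times, and by 1.77, 1.45 and 1.72 times with them, which is under 2-fold. Prdm1 and Hnf4g were also higher toward the tip. Prdm1 was so by 8.88, 3.84 and 2.23 times, and by 10.2, 4.40 and 2.09 times with the ileal cells, and Hnf4g by 2.05, 1.85 and 1.74 times, and by 2.49, 1.97 and 1.97 times with them. Cdx1 was lower, at 0.345, 0.446 and 0.293 of the lowest bin, as was Klf5, at 0.356, 0.409 and 0.419. Hnf4a stayed near level at 0.982, 0.861 and 0.978. These 3 members differed little with the ileal cells kept, when Cdx1 was at 0.285, 0.320 and 0.301, Klf5 at 0.372, 0.404 and 0.421 and Hnf4a at 0.967, 0.755 and 0.946. With those cells kept, Gata4 was higher toward the tip by 3.66, 2.43 and 2.03 times, and without them its ratios were 1.59, 0.95 and 0.898.

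**Figure D4:**
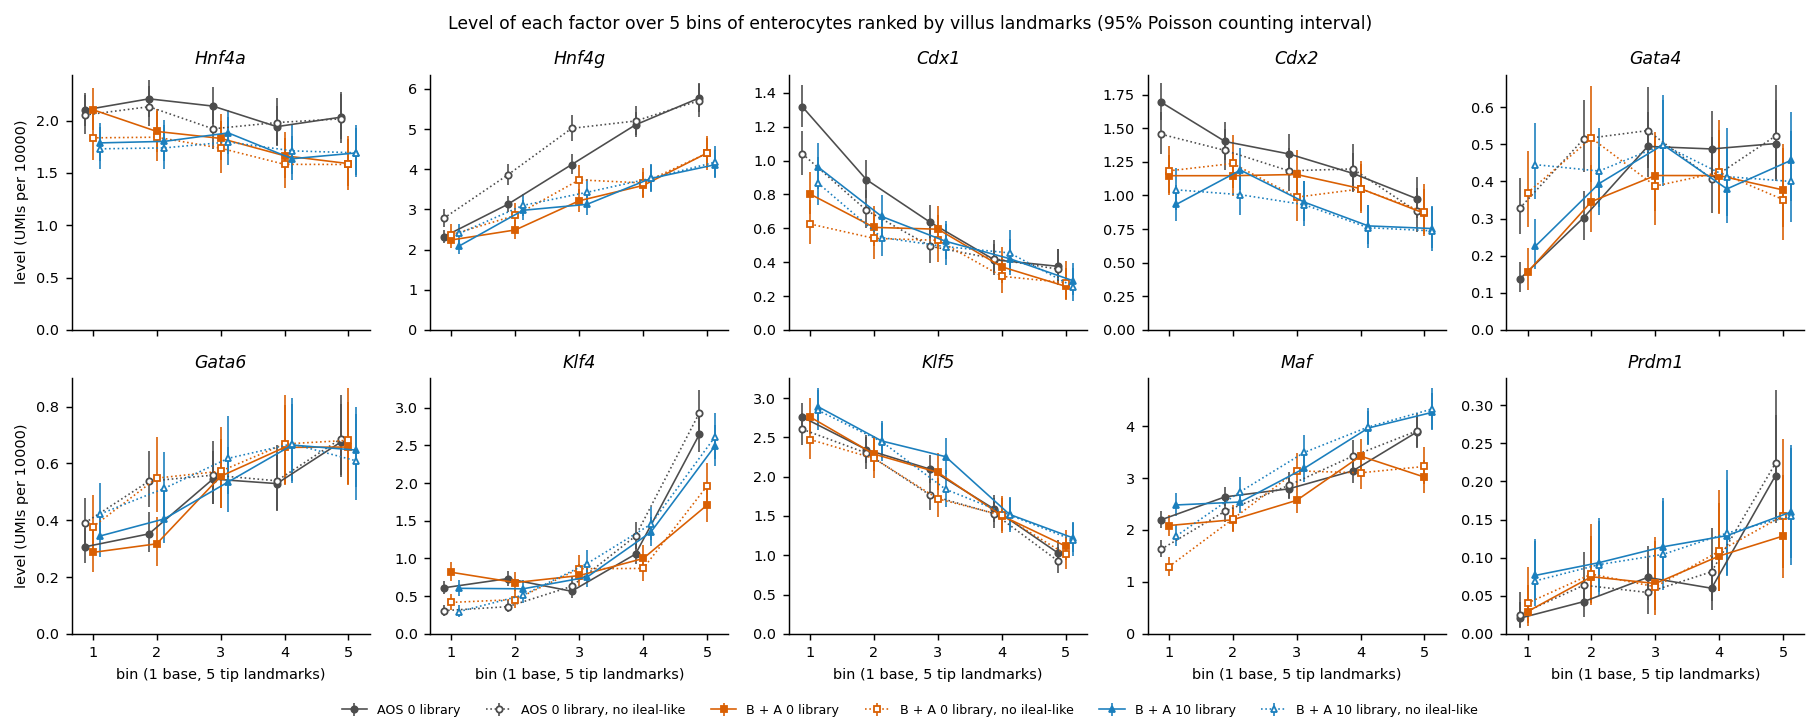
Level of each member (vertical axes, UMIs per 10000 UMIs) in 5 bins of enterocyte-like cells from base to tip of the landmark order (horizontal axes). Solid lines per library are for all enterocyte-like cells, dotted lines are without the ileal cells, and bars give the 95% exact Poisson interval. Cdx1 and Klf5 are lower in the tip bin than in the base bin in each library, and Klf4 is higher, while Gata4 is higher in each library only with the ileal cells kept.

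Between libraries, levels were averaged over the 6 classes with equal weight, which keeps differences in cell numbers out of the ratio. The 3 comparisons share libraries and are not independent. From AOS 0 to B + A 0 all 10 members had ratios below 1 (9 of 10 with ribosomal and defensin genes out of the total), from 0.776 for Hnf4g to 0.995 for Klf5, with a median of 0.872 beside 0.961 over all genes. The intervals of Gata4, Gata6, Klf5 and Prdm1 held 1. No member passed 1.5-fold, as did 3.51% of all genes. Hnf4g had the lowest ratio, 0.776 (0.732–0.822), with 3625 and 1829 UMIs, and was lower in the proximal class at 0.680 (0.608–0.759) and in the mature villus class at 0.771. Of 47 pairs of member and class with at least 100 UMIs, 14 had an interval that left out 1 (13 below and 1 above it), beside 21.8% of such pairs over all genes.

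From B + A 0 to B + A 10, Maf had a ratio of 1.29 (1.20–1.38), Klf4 1.12 (1.04–1.20) and Cdx2 0.813 (0.737–0.897). Only Prdm1 passed 1.5-fold, at 1.64 (1.14–2.36) from 50 and 87 UMIs, beside 2.26% of all genes, and no longer did after thinning. The median of the members was 1.03, and that of all genes was 1.01. Intervals left out 1 for 10 of 44 pairs (6 above and 4 below it), beside 19.3% over all genes.

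From AOS 0 to B + A 10, Cdx2 had a ratio of 0.682 (0.625–0.743), and its level was below AOS 0 in each of the 6 classes, with ratios from 0.624 in the ileal to 0.790 in the early class. Hnf4g had 0.763 (0.721–0.807) and Cdx1 0.807 (0.744–0.877). Prdm1 passed 1.5-fold at 1.62 (1.17–2.23), from 75 and 87 UMIs, beside 5.43% of all genes, but not when levels were means of per-cell values, nor after thinning, when Cdx2 passed it instead, as lower. The median was 0.946 for the members and 0.966 for all genes, and intervals left out 1 for 21 of 48 pairs (4 above and 17 below it), beside 30.1%. Of 34 other transcription factors tested, 0 passed 1.5-fold in the earlier pair of comparisons and 1, Tcf7l2 at 1.59, in this one. Of the 18 targets, Ass1 passed it from B + A 0 to B + A 10, at 0.620.

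In the mature villus class, Klf4 and Maf had ratios below 1 for B + A 0 against AOS 0 and above 1 for B + A 10 against B + A 0. Both ratios share the single B + A 0 library and are not independent. These genes are named because their intervals left out 1 in both comparisons. Hnf4a and Hnf4g gave 0.749 and 0.771 in the first, and their intervals in the second held 1. Cdx2 gave 1.08 and then 0.674. Klf4 there was 0.555 (0.468–0.656) of the AOS 0 level in B + A 0, and the level in B + A 10 was 1.47 (1.23–1.77) times that of B + A 0. Maf there gave 0.770 (0.679–0.871) and then 1.46 (1.29–1.66). Of the 3 libraries, B + A 0 was thus the lowest for both genes in this class. From B + A 0 to B + A 10, Klf4 also gave 1.51 in the proximal class and Maf 1.51 in the early class. Genes of the villus tip moved in the same direction in that class: the 8 tip landmarks summed to 118, 85.5 and 93.5, with Ada at 2.63, 0.545 and 0.951 and Nt5e at 0.188, 0.0179 and 0.0417. All 8 were lowest in B + A 0, and none was at 0. The 6 immediate early genes, which respond to stress of cell isolation, summed to 4.43, 3.24 and 3.37 there, and 5 of 6 were higher in AOS 0 than in B + A 0. From B + A 0 to B + A 10, 1 of the 6 was higher, Fos, at 1.93, 1.19 and 1.71, and the other 5 were lower, among them Junb at 1.20, 0.965 and 0.792. The part of either list in the Klf4 and Maf values was not tested.

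**Figure D5:**
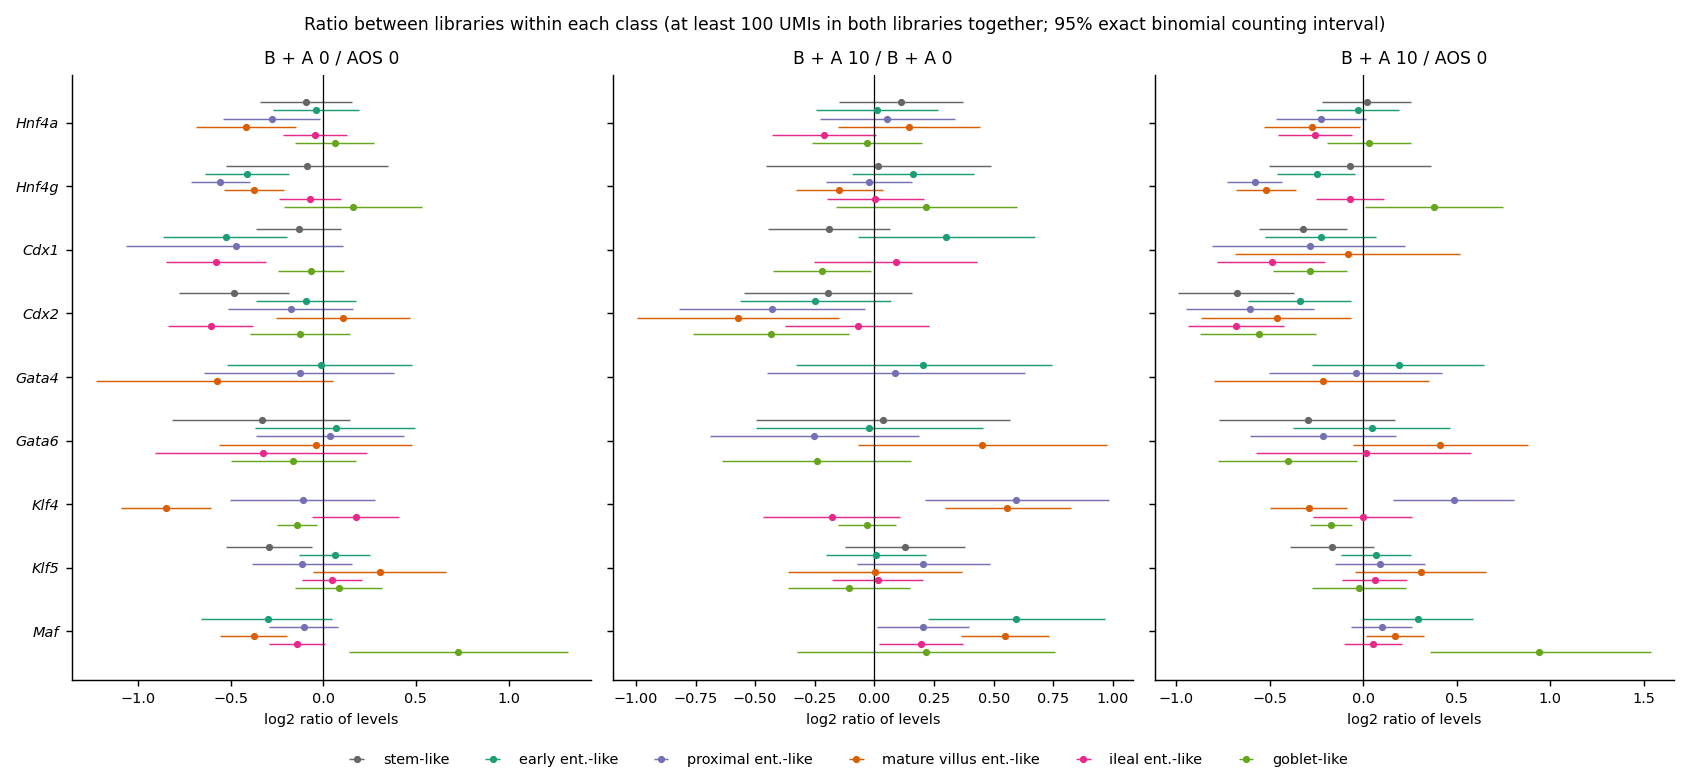
Ratio of each member's level between libraries (horizontal axes, log2 scale) in the 6 cell classes for the 3 library comparisons, with bars for the 95% interval of counting error; Prdm1 is left out for its few UMIs. Klf4 and Maf in mature villus-like cells lie below 1 for B + A 0 against AOS 0 and above 1 for B + A 10 against B + A 0.

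Across 13 named classes in 3 libraries (39 points that share libraries and depth), the log levels of Gata4 and Gata6 had a Pearson r of 0.91, Hnf4g and Maf 0.88, Hnf4a and Cdx2 0.83 and Cdx1 and Maf -0.73. Of all genes with at least 300 UMIs, the one most like Hnf4g was Pnp (0.98), the one most like Maf was Slc3a1 (0.98), a transporter subunit for dibasic amino acids, and the one most like Gata4 was Gata6. Klf5 was closest to Stt3b (0.96), Cdx1 to Mrfap1 (0.93), Hnf4a to Cldn7 (0.93), Prdm1 to Phactr2 (0.92), Gata6 to Dcbld1 (0.92), Cdx2 to Pigt (0.90) and Klf4 to Prr15 (0.80). These values describe the likeness of patterns over classes.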

How the data were processed

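The authors combined the cells of 6 mice per library, counted UMIs with Cell Ranger 2.2.0 on mm10 (submitters' processing notes), and kept cells with at least 200 genes and genes in at least 3 cells. Their methods state a forced number of 5000 cells per library, which the 4106, 3195 and 5352 cells here do not match, and what this means for the shallow B + A 10 library was not tested. The table they deposited holds the natural log of 1 plus UMIs per 10000 UMIs of a cell. Whole UMIs were recovered for 100% of 24333763 values, within a tolerance of 0.01, and summed per class and library. Cells were clustered with Seurat 5.3.0 (R 4.3.3; 2000 variable genes, 20 dimensions, resolution 0.8, libraries joined), with the members barred from the clustering genes. Clusters were named from marker lists, by rules chosen after the clusters had been seen. Scrublet (scanpy 1.11.5) marked 15 cells at its automatic threshold and had not worked, so doublets stayed in, and leaving out the 597 cells of the highest 5% of scores was an alternative, whose calls for over 50% of a cluster left that cluster unnamed. With 1 library per group no test was possible. Intervals (exact Poisson, or exact binomial for shares and ratios, scipy 1.17.1) cover counting error only. All members, a list of 38 other factors, a list of 18 targets and, for each member, the nearest genes by Pearson r on log2(level + 0.01) were described. The members and lists were chosen with earlier results of these data known. Gene coordinates are from GENCODE on GRCm38. Alternatives covered clustering, doublets, depth, scaling and thresholds.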

Additional observations from a re-analysis of the deposited data

Results flagged for a closer look

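In 3 cases a member's ratio between libraries had an interval of counting error that lay above 1 in some classes and below 1 in others. With 1 library per group the difference between classes was not tested.

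For Maf, B + A 0 against AOS 0 gave 1.65 in goblet-like cells (1.10–2.497, from 60 and 44 UMIs) and 0.770 in mature villus-like cells. For Hnf4g, B + A 10 against AOS 0 gave 1.30 in goblet-like cells, 0.841 in early enterocyte-like, 0.668 in proximal enterocyte-like and 0.697 in mature villus-like cells. The 9 mature villus markers, measured in goblet-like cells, summed to 2.15, 4.49 and 5.13 UMIs per 10000 in AOS 0, then B + A 0, then B + A 10, with 1 of them at 0 in AOS 0, 8 of 9 above AOS 0 in B + A 0 and 7 of 9 above it in B + A 10. Apoa1 in goblet-like cells stood at 6.46, 14.8 and 15.7. Their part in the goblet values of Maf and Hnf4g was not tested.

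For Klf4, B + A 10 against AOS 0 gave 1.40 in proximal enterocyte-like cells, 0.817 in mature villus-like and 0.887 in goblet-like cells. The proximal and the mature villus class were weakly separated, and cells pass from one to the other when the clustering is coarser.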

How the results depend on the processing

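No paired analysis was possible because each group is a single library with no replicate number. No called ratio of a member changed sign, while 23 ratios between libraries and 19 between classes that were not called did. Of all single ratios under the alternatives, 900 stayed within their interval and 90 left it, the farthest being Klf4 in mature villus-like against early enterocyte-like cells, which moved by 1.26 on the log2 scale at resolution 0.4. Of the counts and shares, 113 stayed close and 15 moved, as follows. After thinning to 1000 UMIs, the members called were 1 for early against stem-like cells (Hnf4g) and 1 for ileal against proximal (Cdx1), where both were 3, and 0 for B + A 10 against B + A 0, where it was 1. With a 1.5-fold threshold, ileal against proximal gave 5 (adding Hnf4g and Klf5) and goblet against stem gave 4 (adding Hnf4a and Cdx2), as did goblet against stem with ribosomal and defensin genes out of the total, also 4, where it was 2. With a threshold of 25% above, or the same factor below, the library comparisons gave 1 for B + A 0 against AOS 0 (Hnf4g), 2 for B + A 10 against B + A 0 (adding Maf) and 3 for B + A 10 against AOS 0 (adding Hnf4g and Cdx2). The last gave 0 with the mean of per-cell values and 2 with cells of the 6 classes summed (adding Cdx2). Shares of all genes called under these settings are not given beside these counts, so no count is read as particular to the members. The Klf4 share of Klf4 and Klf5 in mature villus-like cells, 71.6%, was 56.4% without joining the libraries, 58.6% at resolution 0.4, 62.3% in cells with at least 500 genes and 75.8% after thinning. Without joining, no proximal class was found, and at resolution 0.4 neither a stem nor a proximal class, so those comparisons had no value. The B + A 10 library was the shallowest, and Prdm1 was too rare for a comparison between classes at the minimum of 100 UMIs. With a minimum of 30 UMIs or none, without joining, or in cells with at least 500 genes, it was called higher in mature villus-like than in stem-like cells.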
